A study of Mus musculus with 25 samples.

Results

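The genes described here are the ligands and receptors of the tumour necrosis factor (TNF) superfamily and the TRAF adaptors that bind those receptors inside the cell. They were chosen by gene symbol from the deposited table, without use of any measured value, and number 47 of 25006 entries: 17 ligands, 24 receptors and 6 TRAFs. Ligands of this family are mostly trimers on the cell surface, and many can be shed. Receptors that carry a death domain can recruit caspases, whereas most others recruit TRAF proteins, which lead to the transcription factor NF-kB and to MAP kinases. In tumours the family is known for costimulation of T cells, for killing by T and NK cells, and for inflammatory signals between macrophages, endothelium and tumour cells.

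RNA was sequenced from C57BL/6 mice with tumours of the mammary carcinoma line E0771, from preparations labelled as enriched CD8+ T cells. One group was given an antibody against CD73 every 3 days, and the other carries the treatment label con. There were 3 libraries in each group. The sources used here give neither the antibody's dose nor what the controls received, nor the age, sex and number of animals. CD73, encoded by Nt5e, forms adenosine from AMP outside cells. The series holds 25 samples, of which 19, from spleen CD8+ T cells in culture, were not analysed here.

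Anti-CD73 libraries held 11618374 to 13172235 recovered reads in genes and control libraries 10180624 to 17161679. Members took 0.166 to 0.174% of the reads of the anti-CD73 libraries and 0.143 to 0.166% of those of the controls. The labelled cell type was scarcely seen, since 10 T cell markers together took 0.00242 to 0.00471% of reads after anti-CD73 and 0.00113 to 0.00477% in controls, and all 10 had at least 1 read in every library. The 10 macrophage markers took 0.0758 to 0.135% after anti-CD73 and 0.0455 to 0.0832% in controls. The values are therefore read as those of mixed tumour material, in which more cells of a type and more RNA per cell cannot be told apart. No library of purified T cells or of whole tumour was compared. Control replicate 1 stood apart from the other controls: across the tested genes, its log2 difference from control replicates 2 and 3 had an SD of 0.75 and 0.80, against 0.35 between those 2. Results are given with all 6 libraries and, where the call changes and for some other genes, also without control replicate 1. That library was singled out because its values stood apart, and only control replicates 2 and 3 then remain. Calls of that fit describe these libraries and are not an independent test. The labels do not tie the replicates to separate animals, so p-values measure the spread between these libraries, which may in part be technical.

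Most TNF superfamily ligands and receptors lay higher after anti-CD73, while the TRAF genes as a group did not. A test was made for the 34 members whose mean reached 10 normalized counts. Of these 27 lay higher and 7 lower, and the median of their log2 fold changes was 0.50 (n = 3 libraries per group), against 6197 of 12262 higher and a median of 0.0039 over all tested genes. The median was 0.62 for the 10 tested ligands, 0.55 for the 18 tested receptors and -0.040 for the 6 TRAFs. No member passed the test over all genes: limma called 0 of 34 members at an adjusted p of 0.05 (0% of all tested genes; smallest member p 0.166), and edgeR also called 0 (0% of all genes). An unadjusted p under 0.05 was found for 6 members (17.6%), against 15.5% of all tested genes. Of these 4 lay higher, where all genes gave 8.69%, and 2 lower, where all genes gave 6.82%. Groups did not overlap for 6 members (17.6%), against 23.5% of all genes, 3 higher (all genes 11.5%) and 3 lower (all genes 12%). Neither share stands out from the background.

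DESeq2 on the recovered reads called 3 of the 32 members for which it gave an adjusted p (9.38%, against 5.05% of all genes). They were Ltb (log2 fold change 1.43, adjusted p = 0.0147), Tnfrsf14 (1.43, adjusted p = 0.0302) and Tnfrsf12a (-0.42, adjusted p = 0.0221). Without control replicate 1, limma called 18 members (52.9%), against 22.2% of all genes. Of these, 16 rose (47.1%, against 11.9% of all genes) and 2 fell (5.88%, against 10.3%). Among them were 4 ligands, 13 receptors and 1 TRAF. The median over the members was then 0.78, and the median standard error of a member was 0.20, against 0.31 with all libraries. Control replicate 1 was singled out by its values, so the counts and smaller errors of this fit are descriptions.

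For many members control replicate 1 was higher than its fellow controls. It exceeded both other controls for 23 of 34 members (67.6%, against 45.1% of all genes), and for 12 of them (35.3%, against 30.7%) it was the highest of all 6 libraries. Against control replicates 2 and 3 alone, all 3 anti-CD73 libraries were higher for 20 members (58.8%, against 25.7% of all genes) and lower for 5 (14.7%, against 27.8%).

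**Figure D1:**
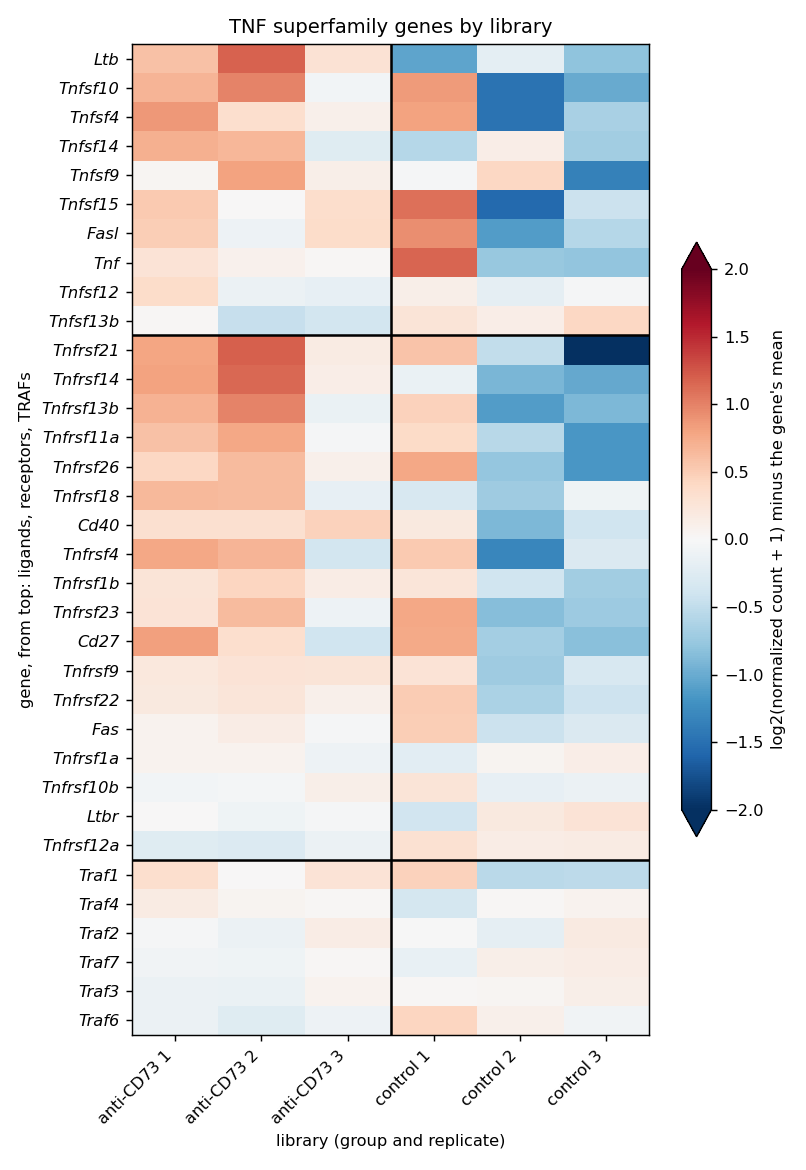
Heat map of the 34 tested members (rows, ligands above receptors above TRAFs, each ordered by log2 fold change) in the 3 anti-CD73 and 3 control libraries (columns), coloured by log2(normalized count + 1) minus the gene's mean. Control replicates 2 and 3 are mostly blue for ligands and receptors, control replicate 1 is mostly red as the anti-CD73 libraries are, and the TRAF rows other than Traf1 are pale.

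Lymphotoxin beta and TNF lie next to each other on chromosome 17, and their values across the libraries were not alike. Ltb encodes the membrane subunit of the lymphotoxin heterotrimer, which drives lymphoid tissue organisation through the receptor encoded by Ltbr. Ltb (ENSMUSG00000024399; chromosome 17, 35194507 to 35196305, GRCm38.p6) stood at 68.8, 104 and 55.5 normalized counts in anti-CD73 replicates 1, 2 and 3, against 21.3, 39.3 and 25.4 in control replicates 1, 2 and 3. All anti-CD73 values lay above all controls, and control replicate 1 was the lowest of the 6, unlike its place for most members. The log2 fold change was 1.37 (SE 0.34), or 2.59-fold, with an adjusted p of 0.166. It was 1.19 without control replicate 1 (adjusted p = 0.0279). In control replicate 1, 21 reads were counted, with a 95% Poisson interval of 13.0 to 32.1 reads for counting error alone.

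Tnf, the inflammatory cytokine that names the family, lies 3061 bases from Ltb (chromosome 17, 35199367 to 35202007). It stood at 496, 437 and 415 normalized counts after anti-CD73, against 919.95, 242 and 236 in controls. The anti-CD73 libraries lay close together, between control replicate 1 above and the other controls below, so the groups overlapped. The mean was 449 ± 41.4 after anti-CD73 and 466 ± 393 in controls (SD, n = 3), whereas the log2 fold change was 0.26 (SE 0.49, adjusted p = 0.838) and thus opposite in sign to the difference of means. It was 0.90 without control replicate 1 (adjusted p = 0.00276). Lta, which encodes the soluble lymphotoxin subunit and lies 1157 bases from Tnf, had 3.72, 5.29 and 5.14 normalized counts after anti-CD73, against 8.12, 3.80 and 2.25 in controls, too few to test.

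The 250 bases before a RefSeq start of Ltb, Tnf and Tnfrsf9 are shown. Ltb was chosen because it had the smallest p of the members, and Tnf because it is its neighbour. Tnfrsf9 was chosen because the window shown, not the only one of that gene, holds the most motif matches of the members described. Capitals mark matches to the kB consensus that NF-kB binds, to the AP-1 motif TGANTCA or to the STAT motif TTCNNNGAA, on either strand. Sequences run 5′ to 3′ on the strand of the gene and come from RefSeq, GRCm38.p6.
Ltb, chr17:35194257-35194506, plus strand: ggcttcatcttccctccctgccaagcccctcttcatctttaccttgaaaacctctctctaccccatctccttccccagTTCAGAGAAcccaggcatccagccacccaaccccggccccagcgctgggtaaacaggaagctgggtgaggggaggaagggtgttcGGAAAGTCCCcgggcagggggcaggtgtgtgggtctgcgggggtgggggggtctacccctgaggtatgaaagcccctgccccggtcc
Tnf, chr17:35202008-35202257, minus strand: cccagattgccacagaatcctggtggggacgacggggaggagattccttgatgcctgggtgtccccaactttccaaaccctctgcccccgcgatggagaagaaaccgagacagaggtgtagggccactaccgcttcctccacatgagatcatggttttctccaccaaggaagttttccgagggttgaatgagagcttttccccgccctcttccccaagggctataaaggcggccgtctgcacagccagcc
Tnfrsf9, chr4:150927749-150927998, plus strand: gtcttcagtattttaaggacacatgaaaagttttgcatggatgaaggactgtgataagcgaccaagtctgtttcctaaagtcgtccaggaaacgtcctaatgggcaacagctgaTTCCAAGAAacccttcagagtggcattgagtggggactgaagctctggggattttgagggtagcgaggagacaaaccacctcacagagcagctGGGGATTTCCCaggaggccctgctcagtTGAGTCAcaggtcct

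A kB match lay 87 to 78 bases before the start of Ltb on the opposite strand, and overlapping kB matches lay 43 to 33 bases before this start of Tnfrsf9. The other Tnfrsf9 window, chr4:150919905-150920154, lies directly before the first base of the gene and held no match. The Tnf window held no match to these letters either. A window was found for 37 of the 47 members, 41 windows in all. The kB consensus was in 4 member windows (9.76%, against 3.9% of all 32851 windows), those of Ltb, Tnfrsf8, Tnfrsf9 and Traf3. TGANTCA was in 6 (14.6%, against 6.75%), TTCNNNGAA in 8 (19.5%, against 7.02%) and the cyclic AMP response element TGACGTCA in 0 (against 1.55%). These are letter matches and were not tested as binding sites.

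Of the receptors of TNF, one lay level and one higher, a difference between genes that was not tested. Tnfrsf1a, the widely expressed receptor with a death domain, stood at 3256, 3246 and 2904 normalized counts after anti-CD73, against 2668, 3219 and 3384 in controls, and the groups overlapped fully (log2 fold change 0.026, SE 0.13, adjusted p = 0.941). Tnfrsf1b, the receptor without a death domain found on leukocytes and endothelium, stood at 3783, 4265 and 3523 after anti-CD73, against 3758, 2402 and 1956 in controls. Control replicate 1 lay within the anti-CD73 range and the other controls well below it. The log2 fold change of Tnfrsf1b was 0.56 (SE 0.23, adjusted p = 0.307), and 0.83 without control replicate 1 (adjusted p = 0.00296).

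The receptor of lymphotoxin lay slightly lower and a receptor of LIGHT higher. Ltbr stood at 1835, 1724 and 1807 normalized counts after anti-CD73, against 1407, 2102 and 2211 in controls. The anti-CD73 libraries fell between control replicate 1 and the other controls (log2 fold change -0.065, SE 0.18, adjusted p = 0.895), and without control replicate 1 Ltbr was one of the 2 members that fell (-0.27, adjusted p = 0.0351). Tnfrsf14, which encodes the herpesvirus entry mediator HVEM, a receptor of LIGHT and a ligand of BTLA, stood at 68.8, 87.9 and 43.2 after anti-CD73, against 35.5, 20.3 and 18.7 in controls, with no overlap. Its log2 fold change was 1.39 (SE 0.37, adjusted p = 0.178), and 1.67 without control replicate 1 (adjusted p = 0.00873). Tnfsf14, which encodes LIGHT itself, stood at 93.0, 90.0 and 47.3 against 37.6, 62.1 and 34.4, and its groups overlapped (0.75, SE 0.35, adjusted p = 0.357).

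**Figure D2:**
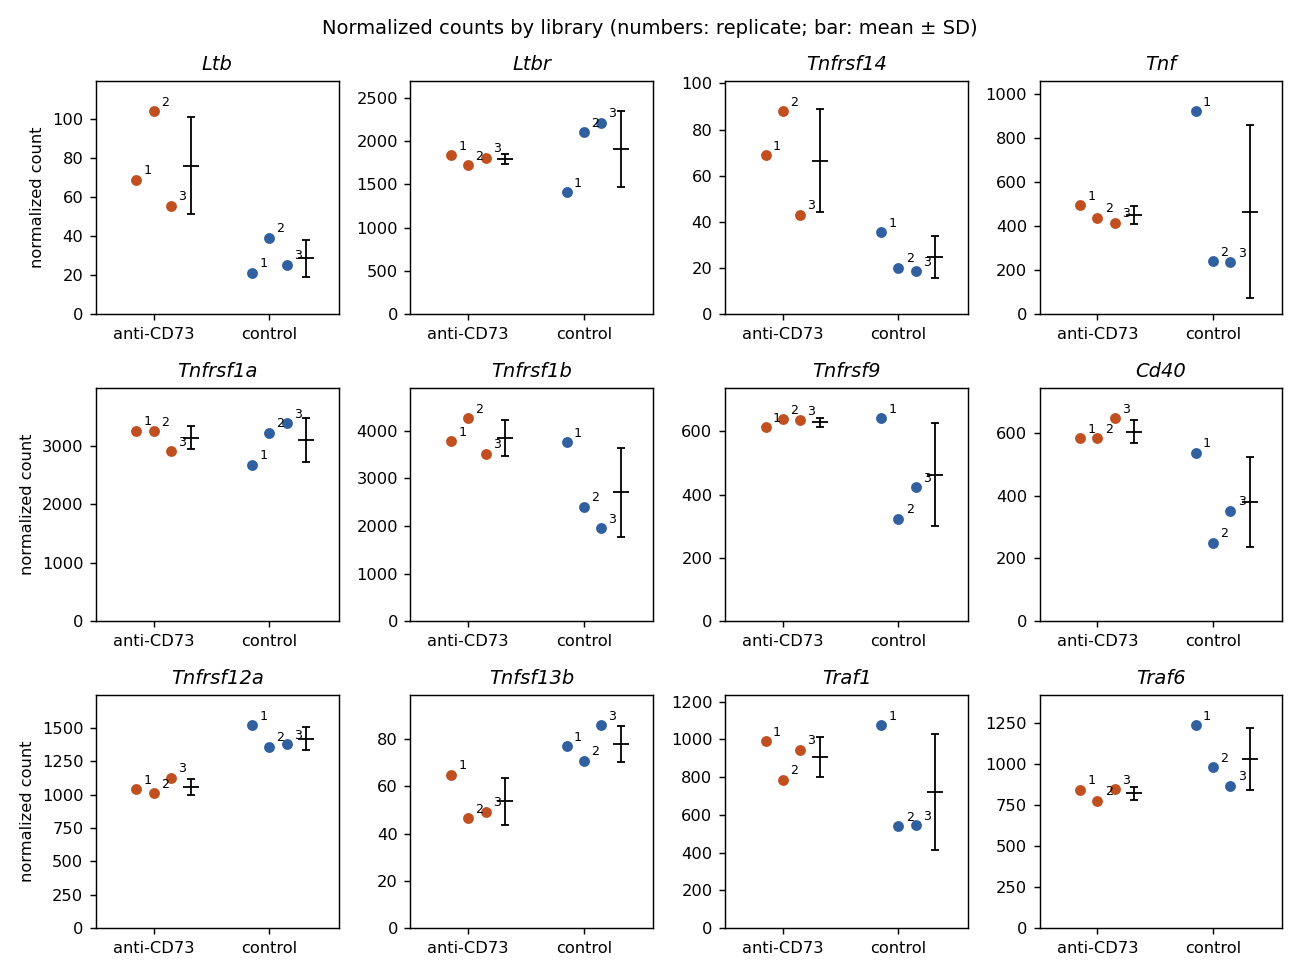
Normalized counts of 12 members in each anti-CD73 library (left, orange) and control library (right, blue), with replicate numbers beside the points and the mean ± SD (n = 3) beside each group. Ltb, Tnfrsf14 and Cd40 have all anti-CD73 points above the controls, Tnfrsf12a, Tnfsf13b and Traf6 have them below, and control replicate 1 (919.95 for Tnf) departs from the other controls for Tnf, Tnfrsf1b, Tnfrsf9 and Traf1.

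Costimulatory receptors with enough reads to test lay higher without passing the limma test with all libraries. Cd40, through which T cells license macrophages, dendritic cells and B cells, stood at 584, 584 and 648 normalized counts after anti-CD73, against 537, 251 and 353 in controls, with no overlap. The log2 fold change was 0.74 (SE 0.26, adjusted p = 0.247), and 1.02 without control replicate 1 (adjusted p = 0.00332). Its ligand gene Cd40lg, of activated CD4+ T cells, had 0 reads in 5 libraries and 1 read in control replicate 3. A count of 0 allows up to about 3 reads, or 2.79 to 3.80 normalized counts in the 5 libraries at 0.

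Tnfrsf9, which encodes the T cell costimulator 4-1BB, stood at 614, 639.5 and 635 normalized counts after anti-CD73, against 642, 324 and 423 in controls. Control replicate 1 was the highest of the 6, and the other controls lay below every anti-CD73 library (log2 fold change 0.50, SE 0.24, adjusted p = 0.36). Without control replicate 1 it was 0.76 (adjusted p = 0.00476). Its ligand gene Tnfsf9 had 23.2, 40.2 and 24.7 after anti-CD73, against 22.3, 30.4 and 8.23 in controls, with overlap (0.64, SE 0.50, adjusted p = 0.577).

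Tnfrsf18, which encodes GITR, a receptor high on regulatory T cells, stood at 56.7, 56.1 and 31.9 normalized counts after anti-CD73, against 28.4, 21.5 and 33.7 in controls. Only anti-CD73 replicate 3 fell within the control range (log2 fold change 0.75, SE 0.32, adjusted p = 0.325). Tnfrsf4, which encodes OX40 and lies 9708 bases from Tnfrsf18 on chromosome 4, had 51.1, 47.6 and 22.6 against 42.6, 11.4 and 23.9 (0.72, SE 0.52, adjusted p = 0.553). The OX40 ligand gene Tnfsf4 had 23.2, 15.9 and 13.4 after anti-CD73, against 22.3, 3.80 and 7.48 in controls (0.88, SE 0.60, adjusted p = 0.524). It rose without control replicate 1 (1.50, adjusted p = 0.0471), where the value of 3.80 rests on 3 reads (95% Poisson interval 0.619 to 8.77), and edgeR and DESeq2 did not call it there.

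Cd27, a receptor of naive and memory T cells, stood at 44.6, 31.8 and 18.5 normalized counts after anti-CD73, against 42.6, 15.2 and 13.5 in controls (log2 fold change 0.50, SE 0.52, adjusted p = 0.677). It was 1.01 without control replicate 1 (adjusted p = 0.103). Its ligand gene Cd70 had 1 read in each anti-CD73 library and in control replicate 3, and 0 in the other controls. Tnfsf18, the GITR ligand gene, had 0.93 to 2.12 normalized counts after anti-CD73 and 0 to 2.03 in controls. T cell transcripts were few in these preparations, and the same libraries were high and low in T cell markers as in Cd27 and Tnfrsf4. Other receptors differed. In anti-CD73 replicate 3, the lowest of its group in T cell markers, Cd40 was at its highest (648) and Tnfrsf9 stood at 635. Tnfrsf18 stood at 28.4 in control replicate 1, the highest library in T cell markers. The 10 T cell markers summed to 577, 519 and 298 normalized counts after anti-CD73, against 620.4, 146 and 203 in controls, and all 10 lay higher (median log2 fold change 0.71, 0 called). The median was 1.35 without control replicate 1, and 5 of the 10 rose, where 11.9% of all genes did. The part of the T cell markers in the receptor values was not tested.

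None of the death receptors and ligands was called by limma with all libraries. Fas, the death receptor of many cell types, stood at 309, 326 and 289 normalized counts after anti-CD73, against 412, 218 and 240.2 in controls (log2 fold change 0.14, SE 0.24, adjusted p = 0.817). Control replicate 1 was again the highest library, and without it Fas rose by 0.43 (adjusted p = 0.0388). Fasl, the ligand of cytotoxic lymphocytes, had 21.4, 13.8 and 19.5 after anti-CD73, against 29.4, 6.34 and 9.73 in controls (0.50, SE 0.55, adjusted p = 0.701), and 1.09 without control replicate 1 (adjusted p = 0.0853).

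Tnfsf10, which encodes TRAIL and is induced by interferon, stood at 123, 152 and 73.0 normalized counts after anti-CD73, against 138, 26.6 and 37.4 in controls. Its log2 fold change was 1.08 (SE 0.60, adjusted p = 0.427), and 1.78 without control replicate 1 (adjusted p = 0.00649). The mouse death receptor for TRAIL, Tnfrsf10b, stood at 273, 276 and 306 against 338, 253 and 261, with no difference beyond the spread (0.016, SE 0.16, adjusted p = 0.974). Tnfrsf22 and Tnfrsf23, which encode decoy TRAIL receptors of the mouse, lie with the related gene Tnfrsf26 within one cluster on chromosome 7 (143607685 to 143686436).

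These cluster genes resemble each other in sequence, so reads may have been split between them, and their levels are uncertain. Tnfrsf22 had 179, 186 and 169 normalized counts after anti-CD73, against 223, 100.1 and 117 in controls. Tnfrsf23 had 352, 452 and 271 against 498, 159.6 and 174, and Tnfrsf26 had 261, 303 and 209.8 against 334, 114 and 86.8. For all 3 genes control replicate 1 was the highest library and control replicates 2 and 3 the lowest. With all libraries their log2 fold changes were 0.37, 0.55 and 0.77 (adjusted p = 0.59, 0.585 and 0.469), and without control replicate 1 they were 0.71, 1.07 and 1.35 (adjusted p = 0.0128, 0.00734 and 0.00329).

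Tnfrsf21, which encodes the death-domain receptor DR6, had the greatest log2 fold change of the tested members and one of the widest errors. It stood at 96.7, 129 and 62.7 normalized counts after anti-CD73, against 83.3, 39.3 and 11.2 in controls (1.43, SE 0.66, adjusted p = 0.353). Without control replicate 1 it was 2.07 (adjusted p = 0.0179). Control replicate 3, at 15 reads (95% Poisson interval 8.40 to 24.7), was the lowest of the 6.

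Tnfrsf12a and Tnfsf13b lay lower after anti-CD73. Tnfrsf12a, which encodes Fn14, the receptor of TWEAK on epithelial, mesenchymal and tumour cells, stood at 1040.5, 1012 and 1127 normalized counts after anti-CD73, against 1521, 1358 and 1379 in controls, with no overlap. The groups averaged 1059.9 ± 59.8 after anti-CD73 and 1419.5 ± 88.6 in controls (SD, n = 3), with a log2 fold change of -0.42 (SE 0.11), or 0.747-fold, and an adjusted p of 0.177. It was -0.37 without control replicate 1 (adjusted p = 0.0164). The 6 epithelial or tumour markers, of which 2 were at 0 in control replicate 1 and none elsewhere, summed to 2511, 2127 and 2703 after anti-CD73, against 1959.7, 3668 and 4660.2 in controls, and nearly all of each sum was Krt8. Control replicate 1 was the lowest library for that sum and the highest for Tnfrsf12a. The other markers were not all alike: of the 3 tested, Krt8 and Krt18 lay lower (log2 fold change -0.43 and -0.29) and Krt19 higher (1.83), all with overlap, and Cdh1, too low to test, lay higher without overlap. Of the 3, 0 were called with all libraries and 1, lower, without control replicate 1, where 10.3% of all genes were called lower. The part of tumour cell content was not tested. The TWEAK gene Tnfsf12 had 130.2, 93.2 and 90.5 after anti-CD73, against 109.7, 88.7 and 99.5 in controls (0.060, SE 0.21, adjusted p = 0.919).

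Tnfsf13b, which encodes the B cell survival factor BAFF, stood at 65.1, 46.6 and 49.4 normalized counts after anti-CD73, against 77.2, 71.0 and 86.1 in controls, with no overlap. Its log2 fold change was -0.54 (SE 0.22, adjusted p = 0.301), and -0.55 without control replicate 1 (adjusted p = 0.123). Of the BAFF receptors, Tnfrsf13b, which encodes TACI, had 33.5, 41.3 and 18.5 after anti-CD73, against 28.4, 8.87 and 10.5 in controls (1.03, SE 0.51, adjusted p = 0.379), and rose by 1.52 without control replicate 1 (adjusted p = 0.0282). Tnfrsf13c, which encodes the BAFF receptor BR3, had 6.17 to 7.44 after anti-CD73 and 1.27 to 6.09 in controls, and Tnfrsf17, which encodes BCMA, had 1 read in anti-CD73 replicate 3 and 0 elsewhere. Tnfsf13, which encodes APRIL and lies 685 bases from Tnfsf12, had 7.41 to 14.9 after anti-CD73 and 3.05 to 14.2 in controls. Reads of these neighbours may have been shared.

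Tnfrsf11a, which encodes RANK, the receptor of osteoclast precursors and other myeloid cells, stood at 143, 164 and 93.6 normalized counts after anti-CD73, against 125, 64.6 and 41.9 in controls. Only control replicate 1 reached the anti-CD73 range (log2 fold change 0.89, SE 0.41, adjusted p = 0.35), and without it RANK transcripts rose by 1.30 (adjusted p = 0.0133). The RANK ligand gene Tnfsf11 had 5.29 to 8.37 after anti-CD73 and 1.50 to 6.09 in controls, and Tnfrsf11b, which encodes the decoy osteoprotegerin, 0.93 to 4.24 and 1.02 to 1.50. Tnfsf15, a ligand gene of endothelial and myeloid cells, had 13.9, 9.53 and 12.3 after anti-CD73, against 21.3, 2.53 and 6.74 in controls (0.59, SE 0.67, adjusted p = 0.707).

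The remaining members were near the limit of detection. In all, 13 members, 7 ligands and 6 receptors, stayed under a mean of 10 normalized counts and were not tested, with at most 19 reads in any library. Of those not yet named, Tnfrsf25, which encodes the death-domain receptor DR3, had 4.24 to 6.51 after anti-CD73 and 0.748 to 3.05 in controls. The CD30 gene Tnfrsf8 had 2.06 to 7.44 after anti-CD73 and 2.25 to 13.2 in controls, and the CD30 ligand gene Tnfsf8 5.29 to 8.23 and 2.99 to 7.11. Tnfrsf19 had 1.03 to 1.86 and 0 to 2.03.

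**Figure D3:**
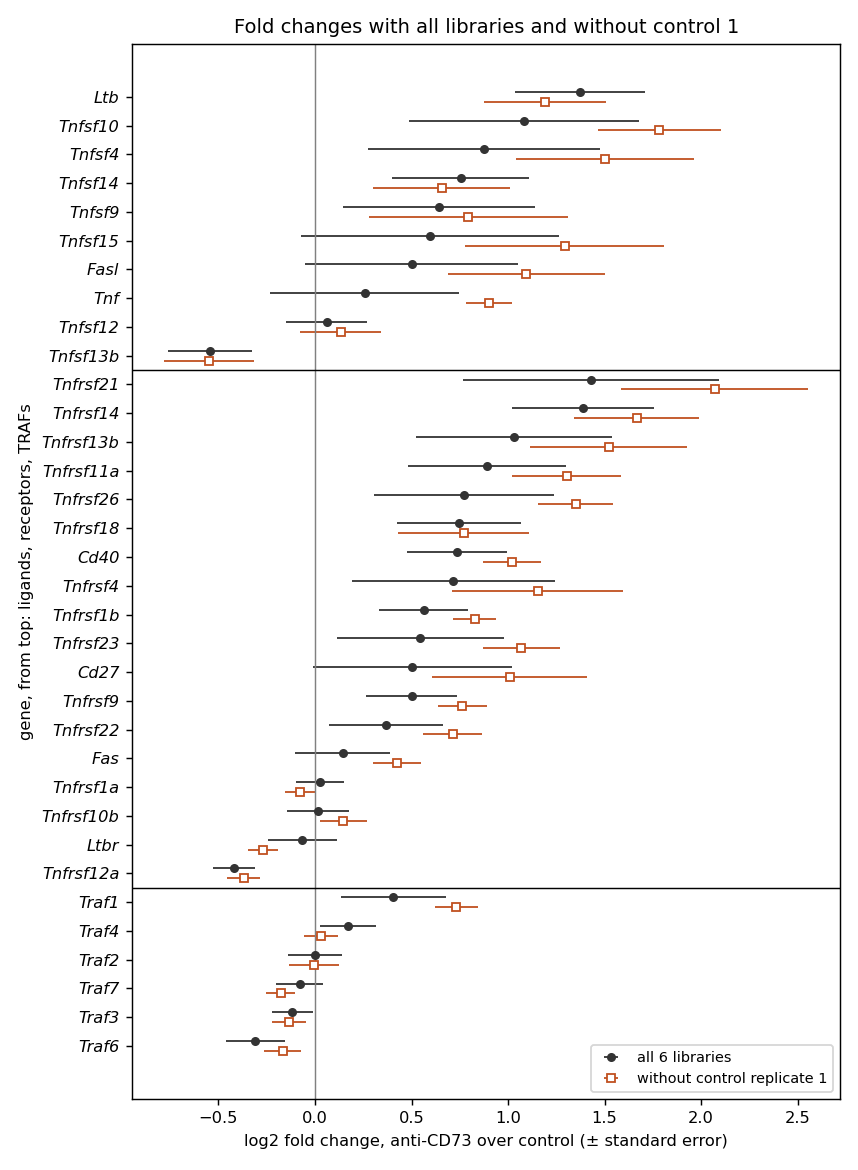
Log2 fold change (anti-CD73 over control, horizontal axis) with its standard error for the 34 tested members, with all 6 libraries (filled circles) and without control replicate 1 (open squares), ligands above receptors above TRAFs. Most open squares of ligands and receptors lie right of the circles and have shorter bars, while Ltb and Tnfsf14 lie slightly left and Tnfrsf12a and Tnfsf13b stay left of 0.

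Of the TRAF adaptors, 2 lay higher and 4 lower after anti-CD73. Traf1, the family member that NF-kB itself induces, stood at 990.3, 787 and 945 normalized counts after anti-CD73, against 1076, 539.7 and 546 in controls. The anti-CD73 libraries lay between control replicate 1 and the other controls (log2 fold change 0.40, SE 0.27, adjusted p = 0.515), and without control replicate 1 Traf1 rose by 0.73 (adjusted p = 0.00395). Traf6, which serves CD40, RANK and the Toll-like receptors, had 841, 774 and 845 after anti-CD73, against 1235, 977 and 867 in controls, with no overlap (-0.31, SE 0.15, adjusted p = 0.372). Without control replicate 1 it was -0.17 (adjusted p = 0.239).

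Traf2, the main adaptor of the TNF receptors, averaged 752 ± 70.5 normalized counts after anti-CD73 and 754 ± 94.8 in controls (SD, n = 3; log2 fold change -0.00066, SE 0.14, adjusted p = 0.999). Traf3, which holds the kinase NIK at a low level, had 1468, 1446 and 1663 after anti-CD73, against 1607, 1634 and 1714 in controls (-0.12, SE 0.11, adjusted p = 0.638). Traf4 had 957, 879.9 and 868 against 662, 867 and 896 (0.17, SE 0.15, adjusted p = 0.618). Traf7 had 2207, 2187 and 2357 against 2078, 2521 and 2565 (-0.080, SE 0.12, adjusted p = 0.786). In these 4 genes the groups overlapped, and none was called without control replicate 1.

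The 17 ligands summed to 1093, 1029 and 832 normalized counts after anti-CD73, against 1426, 587 and 576 in controls. The 24 receptors summed to 13005, 13592 and 12199.7 against 12750.4, 10696 and 10745, and the 6 TRAFs to 7204, 6762 and 7505 against 7402, 7204 and 7442. Control replicates 2 and 3 were thus the lowest libraries for ligands and receptors, and the TRAF sums overlapped.

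The sums of macrophage and of dendritic cell markers, as those of ligands and receptors, were higher in control replicate 1 than in the other controls. The neutrophil sum was lowest there, and within the dendritic cell and neutrophil lists the genes differed. The 10 macrophage markers summed to 12997, 16571 and 9346 normalized counts after anti-CD73, against 10827, 6521 and 5849 in controls, with 10 of 10 higher and none at 0 in any library. The 8 dendritic cell markers summed to 5173, 4467 and 2291 after anti-CD73, against 4151, 935 and 842 in controls, with 7 of 7 tested higher and none at 0. Most of each sum was Cd74 and H2-Ab1. Itgax, Ccr7 and Xcr1 were also higher in control replicate 1 than in the other controls. Flt3, Clec9a and Zbtb46 were not (Zbtb46 119, against 190 and 207). For the 7 neutrophil markers the sums were 12258, 15007 and 8498 after anti-CD73 and 5807, 7687 and 6616 in controls, with 6 of 7 higher and none at 0. Most of each sum was S100a8 and S100a9, which with Retnlg were lowest in control replicate 1. Cxcr2, Csf3r and Ly6g were higher there than in the other controls (Ly6g 253, against 93.8 and 117), and Mmp9 lay between them. The 5 B cell markers summed to 915, 909.5 and 904 after anti-CD73, against 1021, 621 and 582 in controls, and most of each sum was Pax5. Of the 2 tested B cell markers Pax5 lay higher (log2 fold change 0.39) and Cd79a lower without overlap (-0.77), and none was at 0. The 6 endothelial markers, of which 1 was at 0 in anti-CD73 replicate 3 and 1 in control replicate 2, summed to 1234, 1513 and 920.3 against 988, 554 and 434, with 4 of 4 tested higher. The 5 erythroid markers ran the other way, at 20624, 30978 and 8412 after anti-CD73, against 7845, 55529 and 58716 in controls, with 5 of 5 lower and none at 0. Fibroblast markers (8) summed to 5123, 6028 and 5629 against 4434, 5021 and 4008, with none at 0, and the 3 NK cell markers to 66.9, 30.7 and 33.9 against 75.1, 30.4 and 39.7, with 1 at 0 in anti-CD73 replicate 2. With all libraries limma called 0 of these marker genes. DESeq2 called 7, all higher, where it called 5.05% of all genes and 2.99% higher. They were Cxcr2, Csf3r, S100a9 and Mmp9 of the neutrophil list, Itgam and Fcgr3 of the macrophage list, and Tie1 of the endothelial list. The other macrophage markers were not called by DESeq2, among them Csf1r (adjusted p = 0.165) and Adgre1 (adjusted p = 0.675). Without control replicate 1, limma called 22.2% of all genes, 11.9% higher and 10.3% lower. It called 7 of 10 macrophage, 4 of 7 neutrophil, 4 of 7 dendritic cell, 4 of 4 endothelial and 1 of 7 fibroblast markers higher. It also called 5 of 5 erythroid markers lower, 1 of 2 B cell markers in each direction and 0 of 2 NK cell markers. The part of these markers in the levels of the members was not tested.

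**Figure D4:**
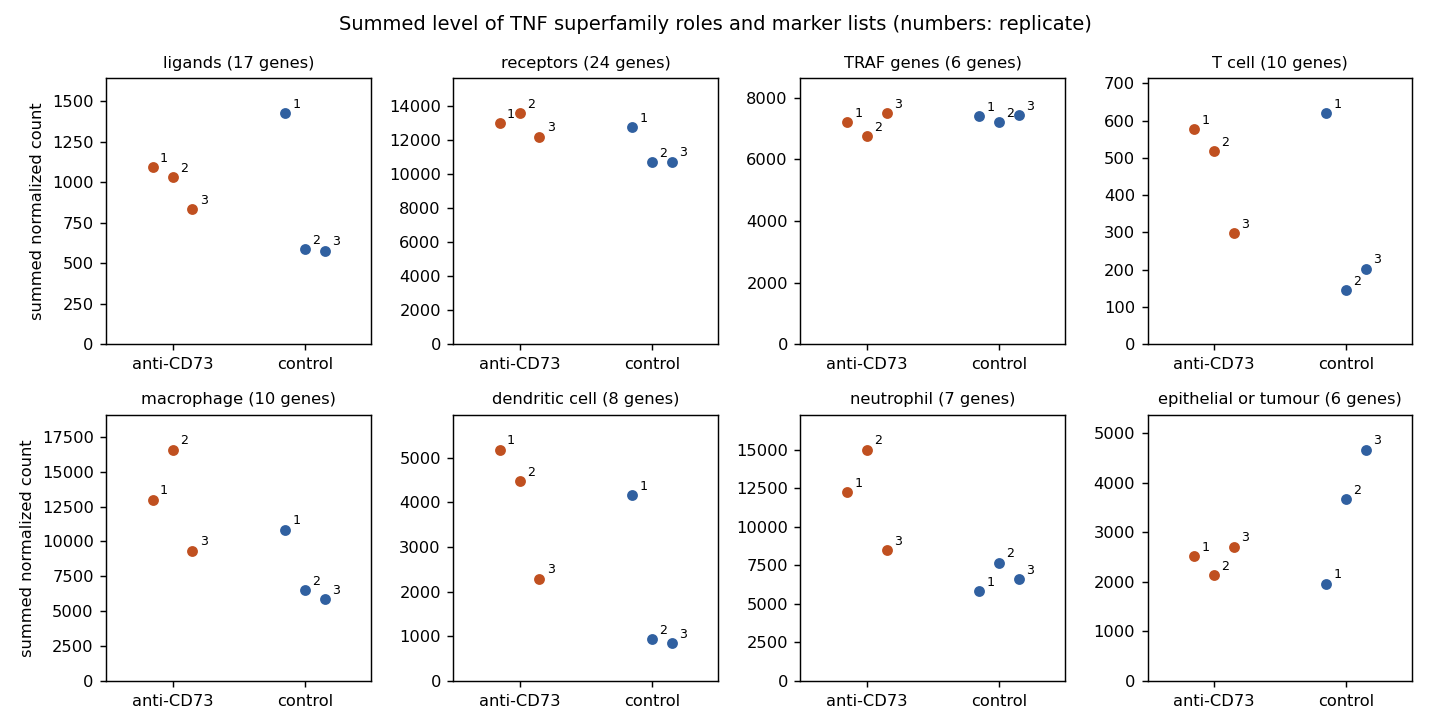
Summed normalized counts of the ligands, receptors and TRAFs and of 5 marker lists in each anti-CD73 library (left, orange) and control library (right, blue), with replicate numbers. Control replicate 1 stands above the other controls for ligands, receptors, T cell, macrophage and dendritic cell markers (4151 against 935 and 842 for the last), and below them for neutrophil and epithelial markers.

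Downstream genes of the pathway were read from 5 lists, and limma called 0 of their 57 tested genes, as did edgeR, while DESeq2 called 5 (Relb, Bcl3, Map3k14, Tnip1 and Rhbdf2), where it called 5.05% of all genes. For the counts that follow, 15.5% of all genes had an unadjusted p under 0.05 (8.69% higher), and 22.2% were called without control replicate 1 (11.9% higher). The lists were drawn up with earlier results of these libraries known, so their counts are descriptions. Among NF-kB subunits and inhibitors, 7 of 11 lay higher (median log2 fold change 0.26) and 4 had an unadjusted p under 0.05. Relb, a subunit of the alternative NF-kB pathway that lymphotoxin and CD40 receptors use, stood at 1694, 1744 and 1725 normalized counts after anti-CD73, against 1206, 1218 and 1425 in controls, with no overlap (0.43, SE 0.11, adjusted p = 0.177). Relb rose by 0.39 without control replicate 1 (adjusted p = 0.0172). Its partner Nfkb2, chosen after its values were seen, had 3654, 3886 and 4038 against 2901, 3094 and 3612 (0.27, SE 0.12, adjusted p = 0.327). Bcl3, an IkB protein that acts in the nucleus, had 1941, 2023 and 2016 against 1688, 1368 and 1364 (0.44, SE 0.12, adjusted p = 0.18), and rose by 0.55 without control replicate 1 (adjusted p = 0.00296). In that fit 4 of the 11 rose, where 11.9% of all genes did.

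Among genes of the receptor complex and its kinases, 11 of 16 lay higher, with a median of 0.082 and 2 at an unadjusted p under 0.05. Map3k14, which encodes NIK, the kinase that starts the alternative pathway, stood at 408, 452 and 341 normalized counts after anti-CD73, against 229, 257 and 261 in controls. All anti-CD73 values lay above the controls, and the 3 controls lay close together (log2 fold change 0.67, SE 0.15, adjusted p = 0.163; DESeq2 adjusted p = 0.00739). Ikbkb, a kinase of the canonical pathway, had 1449.6, 1482 and 1512 against 999, 1216 and 1283 (0.35, SE 0.13, adjusted p = 0.25). In the fit without control replicate 1, 2 of the 16 rose, where 11.9% of all genes did. Map3k14 rose by 0.62 (adjusted p = 0.0154).

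In the death and survival branch, 10 of 11 lay higher (median 0.22), with 3 at an unadjusted p under 0.05. Ripk3, the kinase of necroptosis, had 388, 596 and 358 normalized counts after anti-CD73, against 377, 171 and 185 in controls (log2 fold change 0.93, SE 0.34, adjusted p = 0.257). Only control replicate 1 reached the anti-CD73 range, and without it Ripk3 rose by 1.29 (adjusted p = 0.00421). In that fit 7 of the 11 genes rose, where 11.9% of all genes did, and the median over the 11 was 0.47.

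Of the 15 NF-kB feedback and target genes 10 lay higher (median 0.12), with 1 at an unadjusted p under 0.05. Tnip1, which restrains NF-kB together with A20, had 2784, 2786 and 2959 normalized counts after anti-CD73, against 2184, 1824 and 2336 in controls, with no overlap (0.43, SE 0.12, adjusted p = 0.188), and rose by 0.46 without control replicate 1 (adjusted p = 0.0174). Il1b, a target gene of myeloid cells, had 7265, 7309.9 and 4585 after anti-CD73, against 7385, 1818 and 1109.8 in controls (1.34, SE 0.63, adjusted p = 0.357). Il1b rose by 2.14 without control replicate 1 (SE 0.24, adjusted p = 0.00172), and 4 of the 15 rose there, where 11.9% of all genes did. The list of TNF shedding and related receptors had 3 of 4 tested genes higher (median 0.40). In it, Rhbdf2, which carries the TNF-shedding protease to the cell surface, had 1435, 1653 and 1390.3 against 1063, 1030.1 and 1194, with no overlap (0.44, SE 0.12, adjusted p = 0.18), and rose by 0.42 without control replicate 1 (adjusted p = 0.0225). The receptor gene Relt had a log2 fold change of 0.42 (SE 0.25, adjusted p = 0.454).

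**Figure D5:**
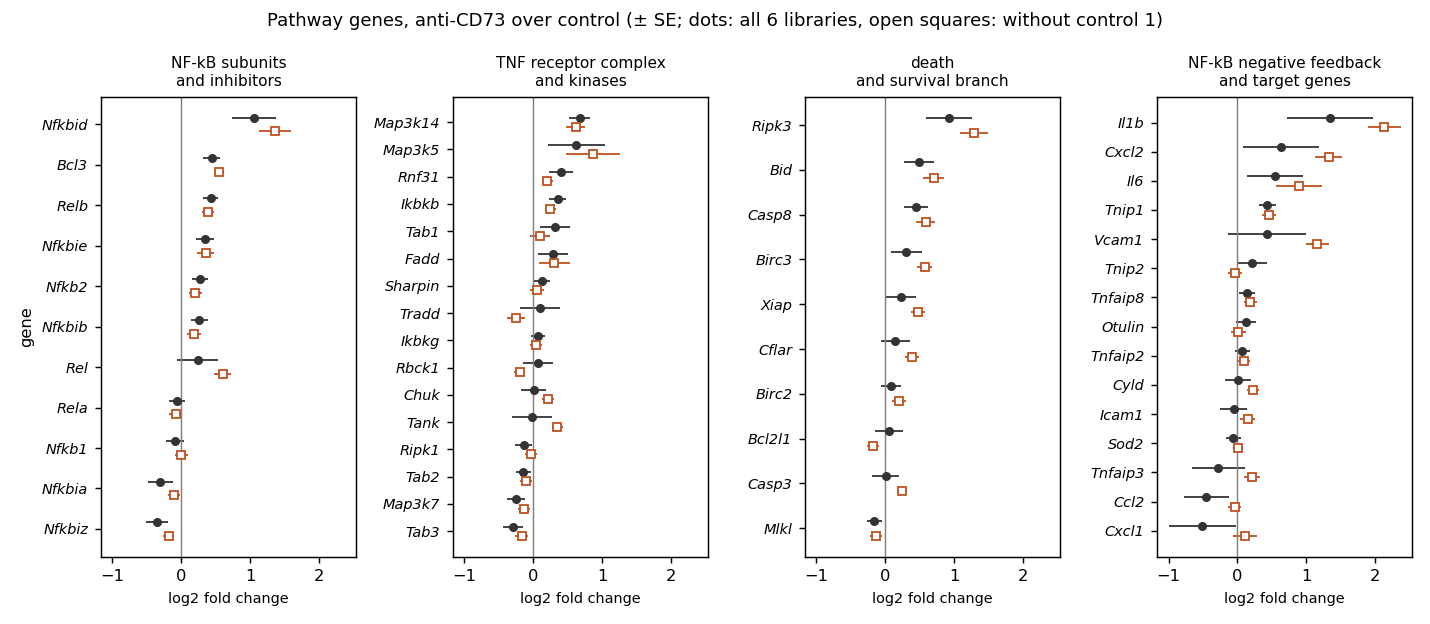
Log2 fold change (anti-CD73 over control, horizontal axes) with its standard error for tested genes of 4 pathway lists, with all 6 libraries (filled circles) and without control replicate 1 (open squares). Relb (0.43), Bcl3 (0.44) and Map3k14 (0.67) have short bars right of 0 in both fits, whereas Il1b has a long bar with all 6 libraries and a shorter one without control replicate 1.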

How the data were processed

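Bulk RNA-seq values of 6 mouse tumour libraries were used, 3 after anti-CD73 and 3 controls, with groups and replicate numbers from the sample titles and columns matched by sample description. Per the labels, the deposited values are counts normalized with DESeq, a signal in which each library has its own size factor. The submitters' processing notes list Bowtie 0.12.7 and mm10 and say nothing of their role. No source used here gives the counter, annotation, strandedness or handling of reads with several matches, so levels of overlapping or similar genes are uncertain. Per the labels' protocols, RNA came from a Direct-zol kit and libraries from NEBNext Ultra II. No ratio of levels between genes was formed, since transcript lengths were not used here.

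Dividing each library by its smallest step gave whole reads for 100% of values, within 0.01 of an integer. Groups were compared, without a block, by the two-sided limma-trend test of limma 3.58.1 in R 4.3.3, with log2(normalized count + 1) as input and the 12262 genes whose mean reached 10, adjusted by Benjamini and Hochberg over all of them at a threshold of 0.05. Fold changes on this scale understate those of genes with few reads. EdgeR 4.0.16 (quasi-likelihood, TMM) and DESeq2 1.42.0 served as alternatives, fitted to those recovered reads. The 95% Poisson intervals given are exact and, as with the floor of 3 reads, express counting error alone. Members, lists and settings were chosen with earlier results of these data known. Values by library are given for the 6 tested members with the smallest p in each direction and for a fixed panel of ligands, receptors and TRAFs, and for the 2 smallest p of each pathway list, of which 1 gene is not reported here. The other members were added so that each is accounted for.

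All 47 members had a RefSeq position by symbol in GRCm38.p6, the assembly of mm10. Promoter windows are the 250 bases before a RefSeq start, and motifs were searched on both strands. The scripts were tested on simulated data, and figures were drawn with matplotlib 3.10.9.

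Deviations of same-numbered libraries from the group means correlated by 0.19, -0.096 and 0.26 for title numbers 1, 2 and 3. For shared description numbers they correlated by -0.16 (anti-CD73 replicate 1 with control replicate 2) and 0.26 (replicate 3 of each group). Deviations cancel out within each group, so these values are linked and cannot decide whether libraries were paired. The numbers are not known to pair libraries and were not taken as pairs.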

Additional observations from a re-analysis of the deposited data

How the results depend on the processing

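With limma, 0 members were called with quantile normalization, with TMM scaling, with a filter at a mean of 50 or none, with a pseudocount of 0.5 or 8, with the replicate block by title number, and with edgeR. DESeq2 called 3 members, and 1 target gene, 2 NF-kB genes, 1 complex gene and 1 shedding gene. The number called with 1 library left out ranged from 0 to 18 for members, 0 to 7 for the death and survival branch, 0 to 4 for NF-kB genes, 0 to 4 for target genes, 0 to 2 for complex genes and 0 to 1 for shedding genes, and in each case only the fit without control replicate 1 was above 0. Chosen after seeing the data, edgeR without control replicate 1 called 17 members and 8, 4, 4, 3 and 1 genes of those lists in that order (2703 of all 12262 genes), and DESeq2 17 members and 8, 5, 4, 3 and 1 (2679 of all genes).

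The replicate block by description number, in which control replicate 1 and anti-CD73 replicate 2 share no number with another library and so add nothing to the difference, called 13 members and 6, 3, 4 and 1 genes of the first 4 lists, and 1780 of all 12262 genes. The numbers are not known to pair libraries.

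The median of the members ranged from 0.24 to 0.78 with 1 library left out, that of ligands from 0.21 to 1.00, that of receptors from 0.28 to 0.92 and that of TRAFs from -0.093 to 0.034. With a mean of at least 50 the member median was 0.26, over 25 genes. The sign of 26 of the 34 members was the same in every setting run. Tnf turned to -0.026 with edgeR and -0.047 with DESeq2, Tnfrsf10b to -0.051 and Tnfsf12 to -0.10 with quantile normalization, and Tnfrsf1a to -0.10 with the block by description number and, without control replicate 1, to -0.062 with edgeR and -0.061 with DESeq2. Traf2 turned to 0.0038 with TMM scaling, 0.014 with edgeR, 0.00024 with DESeq2 and 0.055 with the block by description number. With 1 library left out, Fas ranged from -0.033 to 0.43, Ltbr from -0.27 to 0.056, Tnf from -0.075 to 0.90, Tnfrsf10b from -0.060 to 0.15, Tnfrsf1a from -0.076 to 0.095, Tnfsf12 from -0.11 to 0.15, Tnfsf15 from -0.037 to 1.29 and Traf2 from -0.088 to 0.092. The cause was not tested. Depth limits the 13 members under a mean of 10 and the 9 tested members under a mean of 50.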
